A study of Mus musculus with 55 samples.

Results

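Mitochondria carry their own ribosome, which makes the handful of respiratory chain subunits encoded by mitochondrial DNA. Its RNA comes from the mitochondrial genome, whereas its proteins are encoded in the nucleus, made in the cytosol and imported. Their genes are named Mrpl for the large subunit and Mrps for the small subunit. Some of these proteins have a counterpart in the bacterial ribosome, and others were added during the evolution of mitochondria. Neurons of the cerebellum depend strongly on mitochondrial respiration.

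The members were all genes with a single symbol made of Mrpl or Mrps and digits, with or without a closing letter. Where a gene had several probe sets, the brightest on average stood for it. This gave 76 of the 19938 genes on the array, 47 of the large and 29 of the small subunit. Membership and subunits here follow the symbols and were not checked protein by protein. The proteins of Mrps18a and Mrps30, for instance, sit in the large subunit. By a list drawn up for this report, 43 were counted as having a direct bacterial counterpart and 33 as having none. The 33 include Mrps28, and also Mrps18a and Mrps18b, which like Mrps18c descend from bacterial S18 but sit elsewhere in the ribosome. Statements below on a counterpart follow this list, and other namings may place single genes differently. All 76 lay above the filter on low levels, a mean of 6.44 on the log2 scale, and were among the 14950 genes tested. The members are spread over 17 chromosomes.

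Cerebella of C57Bl/6 mouse pups were hybridised to 55 Affymetrix arrays, and the deposited log2 levels are given here. The insecticide chlorpyrifos is converted in the liver to its oxon (CPO), which was given to the pups at 2 doses, 0.35 and 0.5 mg/kg/day. Other pups had the vehicle, dimethyl sulfoxide. Doses were injected under the skin daily from postnatal day 4 to day 21, and tissue was taken on day 22. The 4 genotypes differ in Pon1, the gene of paraoxonase 1, an enzyme that hydrolyses CPO. R192 mice (tgHuPON1R192) and Q192 mice (tgHuPON1Q192) carry human PON1 transgenes that differ at 1 amino acid; these lines were published on a Pon1 knockout background, which the labels do not state. The arrays labelled KO are given as Pon1-/- and the WT arrays as Pon1+/+. At vehicle, 0.35 and 0.5 there were 4, 5 and 5 R192 arrays, 4, 5 and 5 Q192 arrays, 4, 5 and 3 arrays labelled KO, and 6, 6 and 3 WT arrays. The labels do not say that each array is a separate animal, so p-values measure the spread between these samples, which may be technical. Each array also carries a label number, whose meaning is not given and which arrays can share. The 3 arrays labelled KO at 0.5 carried 2 numbers, as did the 3 WT arrays at 0.5. The 6 WT vehicle arrays carried 4 numbers, and the 4 vehicle arrays labelled KO carried 3.

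Some arrays stood apart from the rest, and the labels KO and WT need care. The mouse Pon1 probe set averaged 10.13 in R192, 10.10 in Q192 and 10.08 ± 0.19 in the 12 arrays labelled KO, against 5.19 ± 0.24 in the 15 WT arrays (SD), with no overlap. The arrays labelled KO thus lay with R192 and Q192 and apart from WT. A high level is not what a lost transcript would give, but whether the probe set reads a working transcript was not tested. These values do not settle the labels, and every genotype direction below rests on the labels as given. In 3 arrays the Xist level was high. Markers of cerebellar granule neurons were lowest in WT vehicle replicate 4, with a mean level of 9.16 over 15 genes, and in WT 0.5 replicate 2, with 9.67. The arrays with the smallest quality weights, where the median weight was 1.14, were both labelled KO, namely 0.35 replicate 5 (0.168) and vehicle replicate 1 (0.172). They also lay highest on the first principal axis of all arrays, at 21.6 and 28.9. No array had a granule neuron marker mean near the filter level. Oligodendrocyte markers were lowest in WT 0.35 replicates 2 (10.19) and 1 (10.54), KO-labelled 0.5 replicate 2 (10.56) and KO-labelled vehicle replicate 1 (10.59). Brainstem and midbrain neuron markers were also low in these arrays, at 7.06, 7.21, 7.49 and 7.49, and in WT vehicle replicate 1, at 7.46. In a whole-tissue sample, fewer cells of a type and less RNA per cell cannot be told apart.

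The promoters of 67 members were found in the RefSeq table for GRCm38.p6, in 73 windows of 300 bases, of which 250 lie before the start of transcription. Some genes of this family are known as targets of NRF1 and of ETS factors such as NRF2 (GABP), which bind promoters of nuclear genes for mitochondrial proteins. The ETS motif CCGGAAG, searched on both strands, was in 34.25% of the members' windows and in 8.86% of all 32851 windows, and in the 250 bases before the start in 23.29% and 6.91%. The NRF1 core GCATGCG was in 10.96% of the members' windows and in 3.58% of all, and before the start in 10.96% and 3.02%. The YY1 motif ATGGCGG was in 16.44% of the members' windows and in 4.05% of all. Before the start it was in 1 of the 73 member windows (1.37%) and in 2.21% of all, so the order turned, and nearly all member windows with this motif had it only in or across the bases after the start. Median GC content was 58.67% in the members' windows and 52.67% in all. The NRF1 core can overlap its own reverse complement, while overlaps with the other motifs were not counted. A match is a description of these letters and not a bound site.

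The 100 bases before the start are shown for members that passed a test described below. Mrpl42 and Mrps33 passed in both comparisons that had any call, and these bases hold none of the 3 motifs. Mrpl9 and Mrpl33 carry the NRF1 core, and Mrpl27 and Mrps22 carry the ETS motif. Capitals mark the motifs, and each sequence runs 5′ to 3′ on the strand of its gene.
Mrpl42, chr10:95501950-95502049, minus strand: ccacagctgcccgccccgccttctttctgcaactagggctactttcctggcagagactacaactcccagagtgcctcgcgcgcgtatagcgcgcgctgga
Mrps33, chr6:39810937-39811036, minus strand: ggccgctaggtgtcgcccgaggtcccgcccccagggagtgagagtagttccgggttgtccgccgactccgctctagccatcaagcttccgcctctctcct
Mrpl9, chr3:94443236-94443335, plus strand: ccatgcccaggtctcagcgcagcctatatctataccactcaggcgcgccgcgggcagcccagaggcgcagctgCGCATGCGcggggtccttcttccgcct
Mrpl27, chr11:94653691-94653790, plus strand: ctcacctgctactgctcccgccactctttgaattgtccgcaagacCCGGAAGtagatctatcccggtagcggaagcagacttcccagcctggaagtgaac
Mrpl33, chr5:31613851-31613950, plus strand: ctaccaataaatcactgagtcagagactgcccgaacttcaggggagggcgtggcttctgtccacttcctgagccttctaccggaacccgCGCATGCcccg
Mrps22, chr9:98601680-98601779, minus strand: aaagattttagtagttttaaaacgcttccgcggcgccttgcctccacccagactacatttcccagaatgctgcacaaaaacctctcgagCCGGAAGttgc
All 16 members that passed in either comparison had a promoter window, and 7 of the 16 held an ETS motif or NRF1 core before the start, beside 23 of the 67 members with a window.

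The family as a whole varied little between arrays. The mean level over the 76 genes ranged from 8.94 in an array labelled KO at 0.35 to 9.20 in WT vehicle replicate 4, which also had the lowest granule neuron markers. By group, the mean was 9.11 ± 0.02, 9.09 ± 0.05 and 9.10 ± 0.02 in R192 at vehicle, 0.35 and 0.5 (SD, n = 4, 5 and 5). In Q192 it was 9.03 ± 0.03, 9.10 ± 0.07 and 9.12 ± 0.04 (SD, n = 4, 5 and 5). In Q192, 3 of the 4 vehicle arrays lay below every array at 0.5. In the arrays labelled KO the mean was 9.07 ± 0.03, 9.02 ± 0.06 and 9.05 ± 0.07 (SD, n = 4, 5 and 3). In WT it was 9.04 ± 0.09, 9.05 ± 0.05 and 9.15 ± 0.04 (SD, n = 6, 6 and 3). The 3 WT 0.5 arrays lay above 5 of the 6 WT vehicle arrays. These means carry no test.

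**Figure D1:**
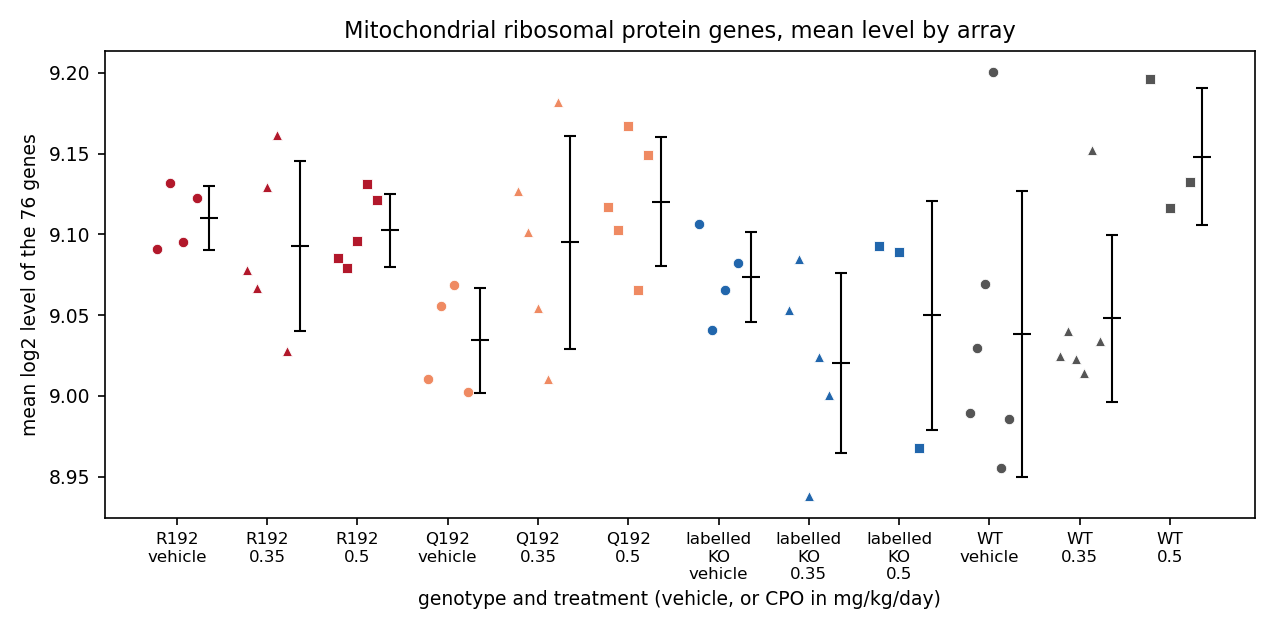
Mean log2 level of the 76 mitochondrial ribosomal protein genes in each array (y axis) by genotype and treatment (x axis); points are arrays and black bars the group mean ± SD. The WT 0.5 group has the highest mean, 9.15, and the arrays labelled KO at 0.35 the lowest, 9.02.

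Individual genes differed in how much they varied. The range of the 12 group means of a gene was 0.21 on the log2 scale in the median member, from 0.064 to 0.57. Mrpl42, a large subunit protein without a bacterial counterpart, had the widest range, with its highest group mean in Q192 0.5 and its lowest in the arrays labelled KO at 0.5. Within groups, the SD was largest for Mrpl47 (0.23), Mrps18c (0.21) and Mrpl1 (0.20), and smallest for Mrpl55 (0.058), Mrps5 (0.069) and Mrpl3 (0.071). The median SD was 0.11 for members and 0.13 for all tested genes. The first axis of the members' variation within groups held 29.2% of their variance. Its sign was set to give the weights a positive sum, and 56 of 76 members had a positive weight. This choice favours a positive majority, and no other gene set was counted.

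Of the 76 members, 30 had their highest group mean in WT 0.5. The next groups in this count were Q192 0.5 with 12 members and the arrays labelled KO at 0.5 with 10. The lowest group mean fell in the arrays labelled KO at 0.35 for 13 members, in those at 0.5 for another 13, and in Q192 vehicle for 12. These counts were not made over all tested genes, so they are not read as a trait of the family. The 0.5 groups of WT and labelled KO hold only 3 arrays each.

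**Figure D2:**
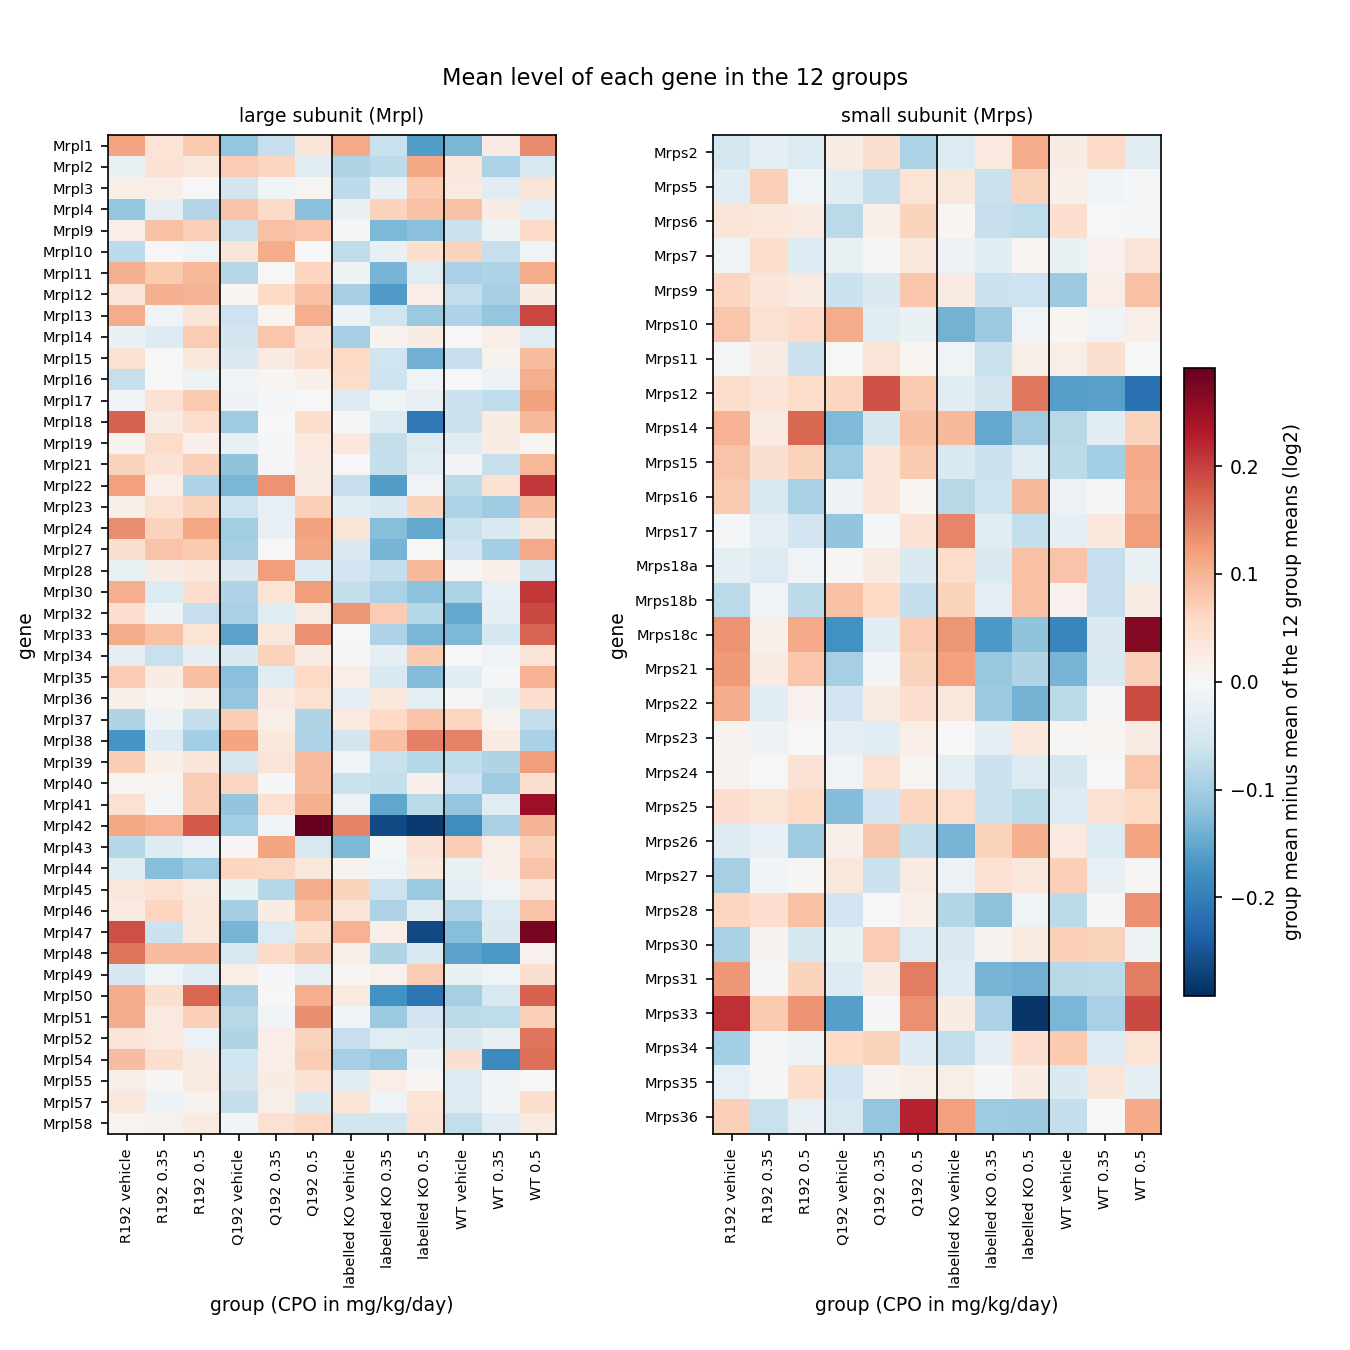
Mean log2 level of each gene in the 12 groups, relative to the mean of its 12 group means, with 1 row per gene and 1 column per group. WT 0.5, a group of 3 arrays, is the highest group for 30 genes, and the lowest for Mrps12. No such count was made over all tested genes.

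Between R192 and the arrays labelled KO, over the mean of 3 treatments, 11 of 76 members passed the limma test at an adjusted p under 0.05, all higher in R192. They were 9 large subunit genes, Mrpl9, Mrpl11, Mrpl12, Mrpl24, Mrpl27, Mrpl42, Mrpl48, Mrpl50 and Mrpl51, and 2 small subunit genes, Mrps31 and Mrps33. The differences ran from 1.09-fold for Mrpl51 to 1.20-fold for Mrpl42. The members' share that passed was 14.5%. Of all tested genes, 5.61% passed, in either direction, and 2.66% passed and were higher. Across the 76 members, 55 were higher and the median difference was +0.064, against +0.0055 over all tested genes.

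The gene with the smallest adjusted p was Mrpl24, whose protein is a large subunit protein with a bacterial counterpart. Its level in R192 arrays was 10.39 at the lowest, 10.50 at the median and 10.71 at the highest, against 10.18, 10.32 and 10.50 in the arrays labelled KO. The groups overlapped, but all 14 R192 arrays lay above the median of the 12 arrays labelled KO, and 8 lay above every one of them. The difference was +0.18 ± 0.044 (SE, adjusted p = 0.00945).

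Mrpl11, a large subunit protein with a bacterial counterpart, ranked next. In R192 its lowest, median and highest levels were 9.57, 9.64 and 9.78, against 9.29, 9.47 and 9.63 in the arrays labelled KO. All 14 R192 arrays lay above the KO-labelled median, and 9 of the 12 arrays labelled KO lay below every R192 array. The difference was +0.16 ± 0.040 (SE, adjusted p = 0.0124).

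Mrpl42 had the largest difference. Its levels in R192 were 7.94, 8.27 and 8.56, against 7.66, 7.94 and 8.56 in the arrays labelled KO (lowest, median and highest). The ranges reached the same height, and 0 R192 arrays lay above every array labelled KO. The 4 vehicle arrays labelled KO had 8.56, 8.09, 8.25 and 8.19, and of those given CPO 1 array, at 8.15, lay above the lowest of them. The difference was +0.27 ± 0.079 (SE, adjusted p = 0.0342). On vehicle arrays alone it was -0.04, so it rested on the arrays given CPO.

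On chromosome 6, which also holds Pon1, lie 6 members, among them Mrpl51 and Mrps33, which both passed. Mrps33 is a small subunit protein without a bacterial counterpart. Its levels in R192 were 10.52, 10.78 and 11.05, against 10.27, 10.47 and 10.94 in the arrays labelled KO (lowest, median and highest). The highest array labelled KO was replicate 5 at 0.35, whose label number is shared with 2 R192 arrays. The difference was +0.25 ± 0.075 (SE, adjusted p = 0.0408), and +0.29 without that array (adjusted p = 0.00601). A second probe set of Mrps33 gave +0.23 ± 0.072 (SE, adjusted p = 0.0433).

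The remaining 7 members had adjusted p between 0.0258 for Mrpl48 and 0.048 for Mrpl27. Mrpl50, a large subunit protein without a bacterial counterpart, differed by +0.22, and by +0.11 once the arrays' first principal axis entered as a covariate (adjusted p = 0.127). Mrpl12, which is known to bind the mitochondrial RNA polymerase as well as the ribosome, differed by +0.17. Mrps31 differed by +0.17, Mrpl48 by +0.15, Mrpl9 by +0.15, Mrpl27 by +0.13 and Mrpl51 by +0.13. For Mrpl27 the second probe set gave +0.02 (adjusted p = 0.892), so its 2 probe sets disagree, and for Mrpl51 the second gave +0.13 (adjusted p = 0.187). Of the 11, 5 have a bacterial counterpart and 6 have none.

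**Figure D3:**
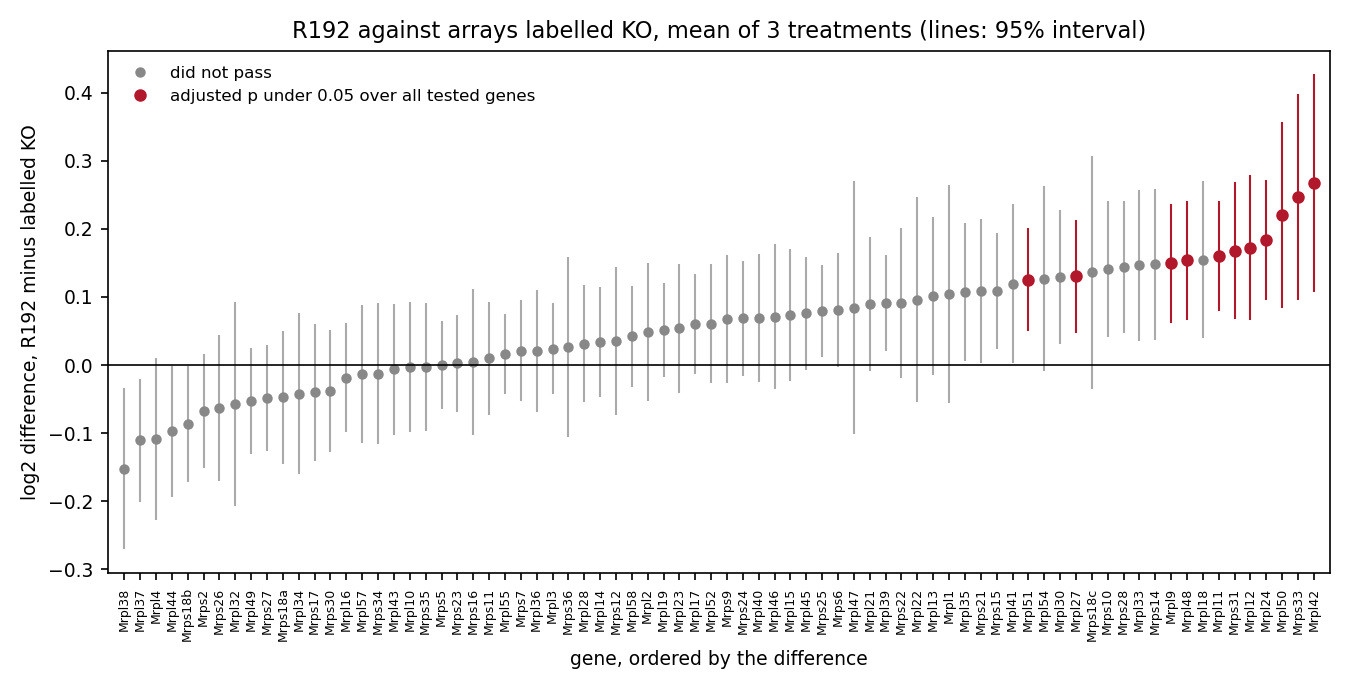
Log2 difference of each of the 76 genes between R192 arrays and arrays labelled KO on the mean of 3 treatments, ordered by size; lines are 95% intervals and red points passed at an adjusted p under 0.05. All 11 red points lie above 0, between +0.13 and +0.27.

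Granule neuron markers were lower in R192 for 15 of 15 genes, by a median of -0.18; 0 passed, and 6 were lower at an unadjusted p under 0.05. Their mean level ranged from 10.16 to 10.61 in R192 arrays and from 10.29 to 11.03 in arrays labelled KO. Purkinje cell markers were lower in R192 for 8 of 10 genes (median -0.20), of which 1 passed, with mean levels of 10.12 to 10.54 in R192 and 10.21 to 10.92 in the arrays labelled KO. Microglia markers were higher for 9 of 10 (median +0.13), of which 2 passed, with 7.93 to 8.41 in R192 and 7.67 to 8.13 in the arrays labelled KO. Both blood cell markers were higher (median +0.21) and neither passed, with 7.80 to 8.85 in R192 and 7.60 to 8.35 in the arrays labelled KO. Brainstem and midbrain neuron markers were higher for 13 of 16 (median +0.09), and 0 passed, with 2 at an unadjusted p under 0.05. No fit took Purkinje, microglia or blood cell markers as a covariate, and the part of any of these cell types in the result was not tested. With the brainstem and midbrain neuron mean as a covariate, 10 members passed as higher and 1 as lower. With the granule neuron mean as a covariate, an alternative chosen after seeing the data, 2 members passed, Mrpl11 and Mrpl24. Of other groups, cytosolic ribosomal protein genes passed for 20 of 48, all higher in R192. Respiratory chain subunit genes passed for 15 of 78, all higher. Over all tested genes the share was 5.61% in either direction and 2.66% for those higher. In the fixed lists of mitochondrial gene expression, Hsd17b10 (+0.20) and Slirp (+0.25), proteins that act in mitochondrial tRNA processing and mRNA stability, also passed as higher.

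The R192 to labelled-KO result depended on the arrays used. No member passed on arrays of date 1 alone or of date 2 alone, and none on vehicle arrays alone, with 11, 27 and 1 members at an unadjusted p under 0.05. The 11 differences stayed positive on each date, from +0.11 to +0.27 on date 1 and from +0.14 to +0.32 on date 2. Mrpl11 was +0.19 on date 1 and +0.14 on date 2, and Mrpl24 was +0.14 and +0.23; both passed in 26 of 26 fits without 1 array. On vehicle arrays alone Mrpl9 was +0.02 (adjusted p = 0.957), and the others of the 11, except Mrpl42, ran from +0.07 for Mrpl50 to +0.18 for Mrps33. Without 1 array the count ran from 2, without either replicate 3 of the arrays labelled KO at 0.5 or R192 vehicle replicate 2, to 19, without replicate 5 of those labelled KO at 0.35.

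In the other comparisons of genotypes, 0 members passed. Here and below, the share of all genes that passed is by the adjusted test, and is no background for counts at an unadjusted p. In Q192 against the arrays labelled KO, 57 of 76 were higher with a median of +0.042 (all genes +0.0059), and 7 higher and 0 lower had an unadjusted p under 0.05; 0.401% of all tested genes passed. The smallest p belonged to Mrps31 (+0.15, adjusted p = 0.26), Mrpl9 (+0.12, adjusted p = 0.329) and Mrpl12 (+0.14, adjusted p = 0.375). These 3 are also among those that passed for R192, and the comparisons share the arrays labelled KO.

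In R192 against Q192, whose transgenes differ at 1 amino acid, 51 of 76 members were higher by a median of +0.018 (all genes -0.0051), with 4 higher and 2 lower at an unadjusted p under 0.05; 0.0736% of all genes passed. The smallest p belonged to Mrpl44, which was -0.14 ± 0.046 (SE, adjusted p = 0.425), Mrps25 (+0.09, adjusted p = 0.438) and Mrpl11 (+0.10, adjusted p = 0.449). In the arrays labelled KO against WT, 20 were higher by label, with a median of -0.035 (all genes -0.0089), 1 higher and 2 lower at an unadjusted p under 0.05; 0.375% of all genes passed. Mrps12, a small subunit protein close to bacterial S12 in the decoding centre, had +0.20 ± 0.055 (SE, adjusted p = 0.136). Its levels were 8.03, 8.37 and 8.56 in arrays labelled KO, against 7.93, 8.20 and 8.46 in WT (lowest, median and highest), so the ranges overlapped. It passed when each array was centred on its median (adjusted p = 0.0468). The next members were Mrpl30 (-0.12, adjusted p = 0.907) and Mrps31 (-0.11, adjusted p = 0.996).

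At 0.5 mg/kg/day of CPO against vehicle, 0 members passed in any genotype, and most members were higher in WT and Q192. In WT, 59 of 76 members were higher at 0.5 than at vehicle and the median difference was +0.11, against -0.013 over all tested genes; 23 were higher and 1 lower at an unadjusted p under 0.05, and 1.04% of all genes passed. Mrpl41, a large subunit protein without a bacterial counterpart, had levels of 10.77, 10.78 and 10.61 at 0.5, against 10.14, 10.41, 10.43, 10.70, 10.23 and 10.24 at vehicle, all in WT. The 3 arrays at 0.5 lay above 5 of the 6 vehicle arrays, and the fourth vehicle array overlapped them. The difference was +0.35 ± 0.10 (SE, adjusted p = 0.0671), and its second probe set gave +0.28 (adjusted p = 0.073). Mrpl30 gave +0.29 (adjusted p = 0.0706) and Mrpl33 +0.30 (adjusted p = 0.0898). In WT, cytosolic ribosomal protein genes averaged 10.62 ± 0.16 at vehicle and 10.87 ± 0.04 at 0.5 (SD, n = 6 and 3). Respiratory chain subunit genes averaged 10.55 ± 0.11 and 10.71 ± 0.02. A higher mean at 0.5 was thus not particular to the members, and these means were not tested. Without WT vehicle replicate 4, 5 members passed. Without that array and WT 0.5 replicate 2, the 2 with the lowest granule neuron markers, 68 members were higher, the median was +0.16 and 0 passed, with 28 at an unadjusted p under 0.05.

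In Q192, 59 of 76 members were again higher at 0.5 than at vehicle, by a median of +0.10 (all genes -0.0040), with 20 higher and 4 lower at an unadjusted p under 0.05; 0% of all genes passed. Mrpl51, a large subunit protein without a bacterial counterpart, had levels of 10.53, 10.45, 10.61, 10.36 and 10.43 at 0.5, against 10.27, 10.27, 10.30 and 10.22 at vehicle, in Q192. These groups did not overlap. The difference was +0.21 ± 0.064 (SE, adjusted p = 0.332), as for Mrps25 (+0.19, adjusted p = 0.332) and Mrpl33 (+0.29, adjusted p = 0.332). In Q192, cytosolic ribosomal protein genes averaged 10.68 ± 0.02 at vehicle and 10.86 ± 0.05 at 0.5 (SD, n = 4 and 5). Respiratory chain subunit genes averaged 10.56 ± 0.03 and 10.66 ± 0.03. Here too a higher mean at 0.5 was not particular to the members, and these means were not tested. Granule neuron markers were lower at 0.5 for 15 of 15 genes in Q192 (median -0.43); 0 passed, and 5 were lower at an unadjusted p under 0.05.

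In the arrays labelled KO at 0.5, 37 of 76 members were higher and the median was -0.0033 (all genes +0.027), with 2 higher and 9 lower at an unadjusted p under 0.05; 0% of all genes passed. The smallest p belonged to Mrpl42 (-0.43, adjusted p = 0.387), Mrpl3 (+0.16, adjusted p = 0.387) and Mrpl45 (-0.19, adjusted p = 0.387). In R192 at 0.5, 39 were higher and the median was +0.00058 (all genes +0.0043), with 0 higher and 1 lower at an unadjusted p under 0.05; 0% of all genes passed. Mrps16 (-0.19), Mrps27 (+0.10) and Mrpl22 (-0.19) had the smallest p there, each at an adjusted p of 1.00. On the mean of 4 genotypes, 67 of 76 were higher at 0.5 by a median of +0.041 (all genes +0.00081), with 10 higher and 0 lower at an unadjusted p under 0.05; 0% of all genes passed. Mrpl27 (+0.11), Mrpl23 (+0.11) and Mrpl41 (+0.13) led, each at an adjusted p of 0.991.

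At 0.35 mg/kg/day no member passed in any genotype. In WT, 44 members were higher (median +0.019, all genes -0.0078), and 0.00669% of all genes passed. At an unadjusted p under 0.05, 0 members were higher and 1 was lower, Mrpl54. At an unadjusted limma p of 0.0281, Mrpl54 ranked 2173 of the 14950 tested genes. An unadjusted p under 0.05 was thus less common among members than among all tested genes. Mrpl54 (-0.23, adjusted p = 0.193), Mrps18a (-0.15, adjusted p = 0.247) and Mrpl10 (-0.13, adjusted p = 0.296) had the smallest p. In the arrays labelled KO, 20 of 76 were higher (median -0.057, all genes +0.026), with 1 higher and 8 lower at an unadjusted p under 0.05; 0% of all genes passed. Mrpl42 (-0.42), Mrps14 (-0.26) and Mrps21 (-0.24) led there, each at an adjusted p of 0.66. Mrpl42 had levels of 7.71, 8.15, 7.82, 7.91 and 7.73 in the arrays labelled KO at 0.35, against 8.56, 8.09, 8.25 and 8.19 at vehicle.

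In Q192 at 0.35, 62 of 76 were higher (median +0.069, all genes +0.00086), with 2 higher and 0 lower at an unadjusted p under 0.05; 0% of all genes passed. Mrpl28 (+0.18), Mrpl14 (+0.14) and Mrpl9 (+0.15) led, each at an adjusted p of 0.999. In R192, 28 were higher (median -0.015, all genes +0.012), with 1 higher and 0 lower at an unadjusted p under 0.05; 0% of all genes passed. Mrps5 (+0.11), Mrpl30 (-0.16) and Mrpl47 (-0.28) led, each at an adjusted p of 0.921. On the mean of 4 genotypes, 37 were higher (median -0.00073, all genes +0.0046), 0 had an unadjusted p under 0.05, and 0% of all genes passed. Mrpl14 (+0.07), Mrpl28 (+0.06) and Mrps30 (+0.06) led, each at an adjusted p of 1.00.

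The effect of CPO at 0.5 was set against that in WT for the arrays labelled KO. In this difference, the effect in the arrays labelled KO minus the effect in WT, 7 of 76 members passed, all lower, namely Mrpl33, Mrpl42, Mrpl47, Mrps18c, Mrps21, Mrps22 and Mrps33. That is 9.21% of the members. Of all tested genes, 9.2% passed in either direction and 3.57% passed and were lower, so the total share of members is near the background. Across the family, 51 of 76 members had a lower effect in the arrays labelled KO than in WT, by a median of -0.13, against +0.049 over all tested genes. For 38 members the effect was positive in WT and negative in the arrays labelled KO, for 21 it was positive in both, for 16 it was negative in WT and positive in the arrays labelled KO, and for 1 it was negative in both.

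**Figure D4:**
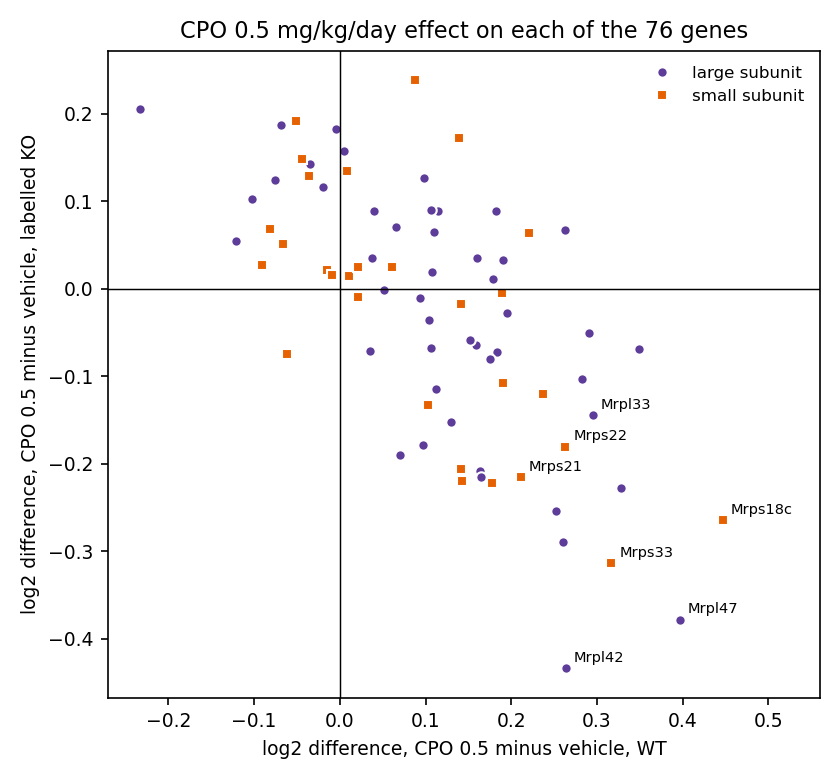
Log2 difference of CPO 0.5 minus vehicle in arrays labelled KO (y axis) against the same difference in WT (x axis) for each of the 76 genes; circles are large and squares small subunit genes. The 7 named genes lie to the lower right, positive in WT and negative in the arrays labelled KO.

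Mrpl47 had the largest difference and is a large subunit protein with a bacterial counterpart. It had levels of 7.98, 7.93 and 7.86 at 0.5 in the arrays labelled KO, against 8.55, 8.02, 8.02 and 8.56 at vehicle. In WT it had 8.37, 8.58 and 8.43 at 0.5, against 7.79, 8.15, 8.12, 8.34, 7.90 and 8.07 at vehicle. The groups did not overlap in either genotype. The difference of effects was -0.77 ± 0.24 (SE, adjusted p = 0.044). Its second probe set, of lower level, gave -0.03 (adjusted p = 0.921), so the 2 probe sets disagree.

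Mrpl42 had levels of 7.91, 7.98 and 7.66 at 0.5 in the arrays labelled KO, against 8.56, 8.09, 8.25 and 8.19 at vehicle. In WT it had 8.35, 8.17 and 8.16 at 0.5, against 7.67, 7.99, 8.35, 8.28, 7.90 and 7.50 at vehicle. The groups did not overlap in the arrays labelled KO but did in WT. The difference of effects was -0.70 ± 0.21 (SE, adjusted p = 0.0397).

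Mrps18c, 1 of 3 mammalian relatives of bacterial S18, had levels of 10.27, 10.63 and 10.14 at 0.5 in the arrays labelled KO, against 10.88, 10.24, 10.57 and 10.68 at vehicle. In WT it had 10.72, 10.81 and 10.66 at 0.5, against 10.12, 10.32, 10.52, 10.48, 10.07 and 10.14 at vehicle. All 3 WT arrays at 0.5 lay above every WT vehicle array, whereas those of the arrays labelled KO overlapped. The difference of effects was -0.71 ± 0.23 (SE, adjusted p = 0.044).

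Mrps33 had levels of 10.34, 10.46 and 10.27 at 0.5 in the arrays labelled KO, against 10.73, 10.44, 10.55 and 10.93 at vehicle. In WT it had 10.79, 10.90 and 10.80 at 0.5, against 10.24, 10.59, 10.63, 10.85, 10.21 and 10.54 at vehicle. Both pairs of groups overlapped, by 1 array at 0.5 in the arrays labelled KO and by 2 in WT. The difference of effects was -0.63 ± 0.20 (SE, adjusted p = 0.044), and its second probe set gave -0.55 (adjusted p = 0.0557).

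The other 3 had smaller differences. Mrpl33, a large subunit protein with a bacterial counterpart, was -0.44 ± 0.15 (SE, adjusted p = 0.0483). It had levels of 7.88, 8.12 and 7.91 at 0.5 in the arrays labelled KO, against 8.41, 7.85, 7.97 and 8.19 at vehicle, and 0 of those 3 arrays lay below every vehicle array. Its 3 WT arrays at 0.5, at 8.24, 8.30 and 8.28, lay above every WT vehicle array, the highest of which was at 8.23. Mrps22, a small subunit protein in which human mutations cause respiratory chain disease, was -0.44 ± 0.14 (SE, adjusted p = 0.0465). Of its 3 arrays at 0.5 labelled KO, 1 lay below every vehicle array of that label, and its 3 WT arrays at 0.5 lay above every WT vehicle array. Mrps21, with a bacterial counterpart, was -0.43 ± 0.14 (SE, adjusted p = 0.0457), and its 3 arrays at 0.5 in the arrays labelled KO, at 10.62, 10.73 and 10.59, lay below every vehicle array of that label. In WT its 3 arrays at 0.5, at 10.73, 10.84 and 10.84, lay below the highest vehicle array, at 10.86, and above the other 5.

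**Figure D5:**
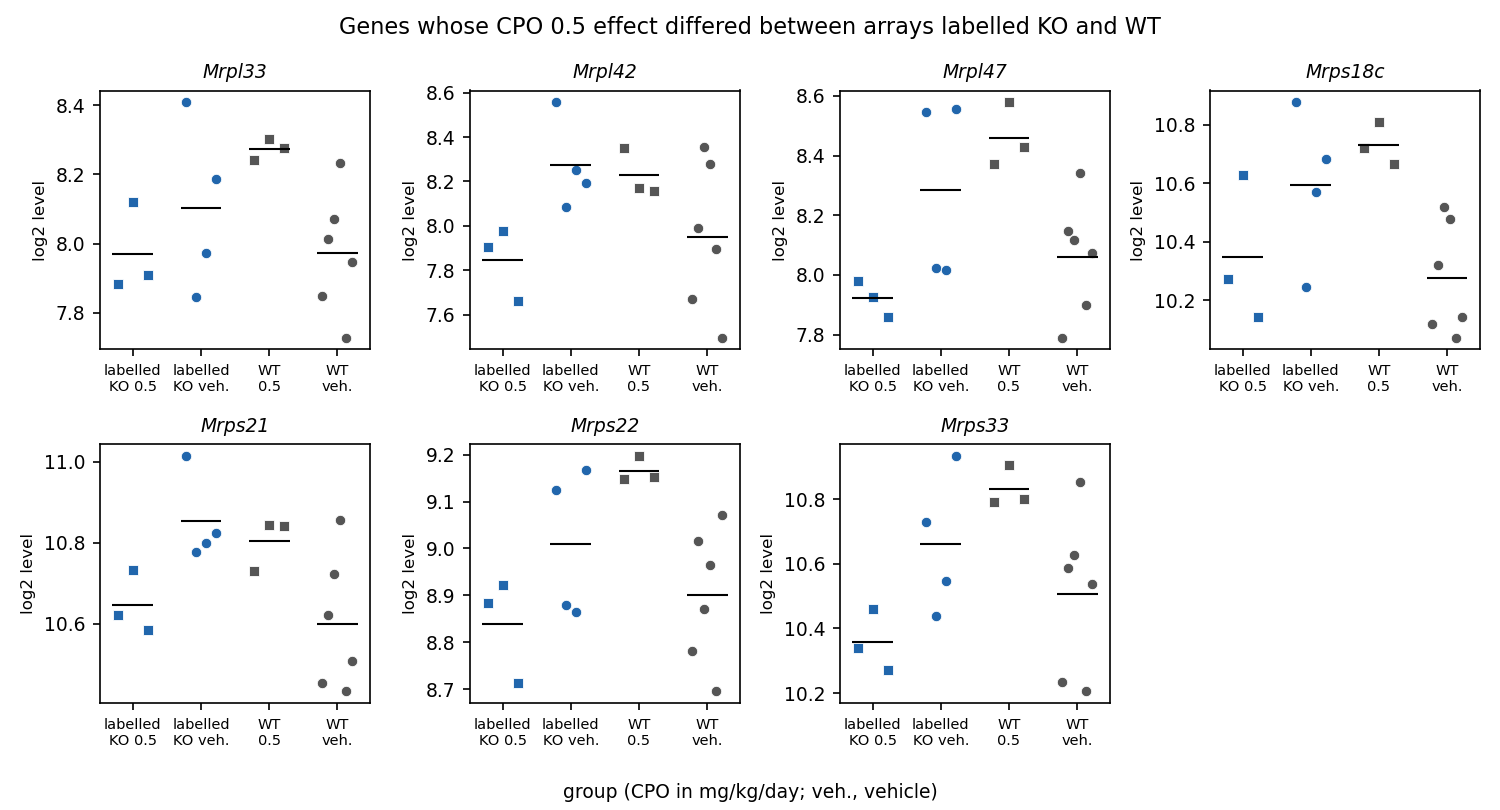
Log2 levels by array of the 7 genes whose CPO 0.5 effect differed between arrays labelled KO and WT, in arrays labelled KO at 0.5 and vehicle (blue) and WT at 0.5 and vehicle (grey); bars are group means, and y ranges differ between panels. Mean levels at 0.5 lie below vehicle in the arrays labelled KO and above vehicle in WT for all 7.

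The 7 calls depended on the arrays and settings, and the 0.5 groups labelled KO and WT held 2 label numbers each. Each of the 7 passed in 9 to 11 of 19 alternatives and in 5 to 7 of 16 fits without 1 array. Counts were 0 on date 1 alone, on date 2 alone, with no filter on level, when the 3 arrays of high Xist were left out, and once granule neuron markers entered as a covariate. The 7 differences stayed negative in those fits, from -0.73 to -0.35 on date 1 alone and from -0.99 to -0.47 on date 2 alone. Mrpl42 was -0.73 and -0.83 there. In the last 3 of those fits, an unadjusted p under 0.05 was reached by 28, 26 and 25 members. Such a p was common in the fit on all arrays, where Mrpl51 at an unadjusted limma p of 0.0406 ranked 4340 of the 14950 tested genes. The share of all tested genes is not given for the other fits. Counts of members at an unadjusted p are thus not read here as an excess. The count of members that passed was also 0 once the first principal axis of all arrays entered the fit. In that fit 3 members had an unadjusted p under 0.05. There Mrpl47 was -0.11, Mrpl33 -0.10, Mrps18c -0.10, Mrps22 -0.08, Mrps33 -0.18, Mrps21 -0.20 and Mrpl42 -0.35. Granule neuron markers had a higher effect in the arrays labelled KO than in WT for 14 of 15 genes, with a median of +0.30. Their mean level ranged from 10.70 to 11.03 in the arrays labelled KO at 0.5 and from 10.29 to 10.81 at vehicle. In WT it ranged from 9.67 to 10.56 at 0.5 and from 9.16 to 11.24 at vehicle. Leaving out WT vehicle replicate 4 and WT 0.5 replicate 2, the 2 arrays with the lowest markers, gave 0 calls, 34 members at an unadjusted p under 0.05 and a median of -0.17. Leaving out a single array changed the count between 0 and 19, and it was 0 without KO-labelled vehicle replicate 1, which had the highest vehicle level of Mrpl42 in that label.

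Other genes of mitochondrial gene expression passed in the same difference in both directions. Lower were Ptcd3, a small subunit protein under another symbol (-0.54), the translation factor Guf1 (-0.58), the initiation factor Mtif2 (-0.52) and the release factor Mtrf1 (-0.56). Also lower were Tfam (-0.58), which packages mitochondrial DNA, the single-stranded DNA binding protein Ssbp1 (-0.63), Slirp (-0.51), Pnpt1 (-0.55), Hsd17b10 (-0.40) and Malsu1 (-0.33). Higher were Polrmt, the mitochondrial RNA polymerase (+0.47), Elac2 (+0.49), Dhx30 (+0.48), Letm1 (+0.51), an ion transport protein of the inner membrane, and the tRNA synthetases Aars2 (+0.36) and Tars2 (+0.33). By list, 1 of 4 other mitoribosome genes, 4 of 15 translation factors, 3 of 28 assembly genes, 2 of 19 tRNA synthetases and 6 of 14 genes of mitochondrial DNA expression passed. Of the cytosolic ribosomal protein genes 14 of 48, and of the respiratory chain subunits 20 of 78, passed as lower. Of all tested genes, 9.2% passed in either direction and 3.57% passed and were lower. The shares of assembly genes and tRNA synthetases thus lie near the background. These calls come from the same fit as the members' calls above, which were lost in several settings. They were not followed through those settings.

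For the other differences of dose effects, 0 members passed. For 0.35 in the arrays labelled KO minus WT, 23 of 76 were positive (median -0.062, all genes +0.033), with 2 higher and 9 lower at an unadjusted p under 0.05; 0.00669% of all genes passed. At an unadjusted limma p of 0.0484, Mrpl38 ranked 3690 of the 14950 tested genes in this difference. An unadjusted p under 0.05 was thus less common among members than among all tested genes. Mrpl42 (-0.50, adjusted p = 0.0944), Mrps21 (-0.33, adjusted p = 0.0946) and Mrps25 (-0.21, adjusted p = 0.0982) led. For R192 minus Q192 at 0.35, 20 were positive (median -0.085, all genes +0.0068), with 1 higher and 2 lower at an unadjusted p under 0.05; 0% of all genes passed. Mrpl30 (-0.28), Mrpl22 (-0.36) and Mrps27 (+0.19) led, each at an adjusted p of 0.766. For R192 minus Q192 at 0.5, 21 were positive (median -0.10, all genes +0.0020), with 0 higher and 10 lower at an unadjusted p under 0.05; 0% of all genes passed. Mrpl51 (-0.25), Mrpl33 (-0.35) and Mrps36 (-0.37) led, each at an adjusted p of 0.672.

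Medians had the same sign for both subunits, and for genes with and without a bacterial counterpart, in the 3 comparisons below. In WT at 0.5, the median difference was +0.11 over 47 large and +0.088 over 29 small subunit genes, and +0.13 and +0.11 over genes with and without a counterpart. In R192 against the arrays labelled KO, it was +0.071 over large and +0.027 over small subunit genes, and +0.069 and +0.042 over genes with and without a counterpart. In the difference of effects at 0.5, it was -0.16 over large and -0.031 over small subunit genes, and -0.16 and -0.089 over genes with and without a counterpart. With Mrps18a and Mrps18b counted as having a counterpart, a choice made after seeing the data, the medians with and without one were +0.11 and +0.11, +0.068 and +0.061, and -0.14 and -0.10 in the 3 comparisons.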

How the data were processed

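Cerebellar RNA was hybridised to arrays of the type Affymetrix Mouse Gene 1.0 ST. The deposited values are log2 levels, made by the authors with Affymetrix Expression Console 1.1 and RMA per the submitters' processing notes; these name no log base, and base 2 was taken from their range of 1.15 to 14.80. No further normalisation was applied. Array medians were 7.37 to 7.54. Of 35557 probe sets, 21789 had 1 symbol in the platform annotation, 1621 had several and 12147 none. The genome build behind the files is not given in the sources used. Tested were genes whose mean level exceeded the 25th percentile, without 3 sex-linked genes. For arrays, their number limits the precision.

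All 55 arrays entered 1 limma 3.58.1 fit (R 4.3.3) with 12 group means, the array date (2 dates) as a covariate and the 36 label numbers as correlated blocks (correlation 0.131), with 42 residual degrees of freedom. Adjusted p-values are Benjamini and Hochberg's, over 14950 genes within each of 18 comparisons, at 0.05. The fit was tested on simulated data. Figures were drawn in Python 3.11.15. In each comparison the text names every member that passed if 20 or fewer, or else the 10 largest rises and falls. Where fewer than 3 passed it names the 3 with the smallest p. It also names the 3 with the largest and smallest spread, and genes of other mitochondrial lists that passed. Other genes given values (Pon1, the second probe sets) were added as checks. Members and lists were chosen with earlier results of these data known. The 20 alternatives and 55 left-out arrays covered filters, weights, scaling, dates, probe sets, blocks and covariates. A probe set with several symbols (Mrpl53) was not used, and 1 gene of the family is not reported here.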

Additional observations from a re-analysis of the deposited data

Results flagged for a closer look

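In groups of 4 to 10 arrays, 77 groups were searched for an array standing apart by Dixon's test, and 3 did, where chance gives about 1 in 20. The mean level of the 76 genes was 9.15 in WT 0.35 replicate 5, and the nearest array of that group was at 9.04. Mrpl9 was at 8.97 in R192 0.5 replicate 3, and the nearest was at 9.16. Mrpl24 was at 10.50 in vehicle replicate 1 labelled KO, and the nearest was at 10.44.

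The effect of CPO at 0.5 differed between arrays labelled KO and WT, by the limma test of the difference, for Mrpl33 (-0.44), Mrpl42 (-0.70), Mrpl47 (-0.77), Mrps18c (-0.71), Mrps21 (-0.43), Mrps22 (-0.44) and Mrps33 (-0.63) on the log2 scale. In each of the 7 the effect was lower in the arrays labelled KO. These are 9.21% of the members, and 9.2% of all tested genes passed, so the share is near the background. The count was 0 with the first principal axis or granule neuron markers as a covariate, on either date alone, with no filter on level, with only the groups compared, and without the arrays of high Xist or the 2 arrays of lowest granule neuron markers.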

How the results depend on the processing

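Counts of members that passed, given as 11 for R192 against the arrays labelled KO and 7 for the difference of the CPO 0.5 effect between the arrays labelled KO and WT, moved with many settings. For R192 against labelled KO the count was 37 with array quality weights (29 higher and 8 lower), 19 without replicate 5 of the arrays labelled KO at 0.35, 7 with a replicate block, 6 with no filter on level, 5 with the first principal axis taken as covariate, and 0 on date 1, on date 2 and on vehicle arrays alone. It was 2 with granule neuron markers as a covariate, an alternative chosen after seeing the data. Leaving out 1 array gave 2 to 19. It was 4 without R192 0.5 replicate 1, R192 vehicle replicate 4, KO-labelled vehicle replicate 2 or KO-labelled 0.35 replicate 4, 5 without R192 0.5 replicate 5, KO-labelled vehicle replicate 3 or KO-labelled 0.35 replicate 1, 6 without R192 0.35 replicate 2 or 4, and 7 without R192 0.35 replicate 1, KO-labelled 0.35 replicate 3 or KO-labelled 0.5 replicate 1. Mrpl42 reversed to -0.037 on vehicle arrays only.

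For the difference of the CPO 0.5 effect, the count was 16 with arrays centred on their median, 15 with a filter at the 50th percentile, 12 with no number correlation and with brainstem and midbrain neuron markers as a covariate, and 11 with no date covariate, with quality weights and without replicate 5 of the arrays labelled KO at 0.35. It was 0 with no filter, on either date alone, without the arrays of high Xist, with only the groups compared, with the first principal axis taken as covariate, without the 2 arrays of lowest granule neuron markers and with granule neuron markers as a covariate, the last 2 chosen after seeing the data. Leaving out 1 array gave 0 to 19. It was 0 without KO-labelled 0.5 replicate 1 or 3, KO-labelled vehicle replicate 1 or 4, WT 0.5 replicate 2 or 3, or WT vehicle replicate 1 or 5, 1 without WT vehicle replicate 6 and 4 without WT vehicle replicate 2. It was 12 without KO-labelled 0.5 replicate 2 or WT vehicle replicate 3, 13 without KO-labelled vehicle replicate 3, 16 without WT vehicle replicate 4 and 19 without KO-labelled vehicle replicate 2.

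Elsewhere the count was 0. For CPO 0.5 in WT it became 25 with quality weights, 3 with brainstem and midbrain neuron markers as a covariate, 2 with no number correlation and 1 with a filter at the 50th percentile, and 0 to 5 without 1 array. For CPO 0.5 it became 6 in Q192 with quality weights and 1 with only the groups compared, and 1 on the mean of 4 genotypes with quality weights. For labelled KO against WT it became 2 with quality weights and 1 with centring, quantile normalisation, without replicate 5 of the arrays labelled KO at 0.35 or without the arrays of high Xist, and 0 to 1 without 1 array. With quality weights it became 8 for Q192 against labelled KO and 1 for R192 against Q192. For the difference of the CPO 0.35 effect, it became 4 without replicate 5 of the arrays labelled KO at 0.35, and 0 to 4 without 1 array. Of 346 medians of the members, 28 changed sign. The replicate numbers of the labels did not pair the arrays, with a mean correlation of 0.027 over 265 same-numbered pairs, and a block for them changed no other count by over 1.5 times. The cause of these changes was not tested.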
